A study of Mus musculus with 31 samples.

Results

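The 10 genes described here control entry into the cell cycle and the response to p53: the INK4 inhibitors Cdkn2a, Cdkn2b, Cdkn2c and Cdkn2d, the CIP/KIP inhibitors Cdkn1a and Cdkn1b, Trp53 and its ubiquitin ligase Mdm2, the pocket protein gene Rb1 and the cyclin D1 gene Ccnd1. They were chosen by name for their role, out of 21938 protein-coding genes annotated on chromosomes 1 to 19, X and Y, and each was examined for ATAC-seq peaks within 1 kb of any of its transcript starts (TSS), in the gene body and within 50 kb of the gene. A single ATAC-seq library of unmodified NIH-3T3 cells, an established line of mouse fibroblasts, was used, for which the sample labels list no doxycycline. The study's methods describe doxycycline treatment of NIH-3T3 cells before ATAC-seq and name no exception for this library. The series also holds 30 samples of cells that overexpress 13 TFs or rtTA3G alone, which were not analysed here. In ATAC-seq, Tn5 transposase inserts adapters where nucleosomes leave DNA uncovered, and sequenced fragments accumulate over accessible chromatin.

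INK4 proteins bind CDK4 and CDK6 and keep them from joining D-type cyclins, whereas CIP/KIP proteins act on complexes of cyclins with CDKs. Active CDKs phosphorylate the pocket protein RB1, which then releases E2F factors and lets cells enter S phase. p53 switches on Cdkn1a after DNA damage, MDM2 marks p53 for degradation, and the ARF protein, read from Cdkn2a through its own first exon, holds MDM2 back. Mouse fibroblast lines that grow without limit in culture often arise with loss of ARF or p53 function.

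Most of these promoters were accessible, and the exceptions lay side by side. Of the 10 genes, 8 had a peak within 1 kb of a TSS, and Cdkn2a and Cdkn2b had none. Across all protein-coding genes, 53.7% had such a peak. Among the 11446 genes with a CpG-rich start, to which 9 of the 10 belong, the share was 81.0%. A start was called CpG-rich where the 500 bp around it had at least 0.6 of the CpG expected from its base composition and at least 55% G and C, and Trp53 was the gene without one. Cdkn2a and Cdkn2b both belong to the 9, so the share of the 9 with a peak was near the 81.0% of all such genes. In all, 65 peaks lay in or around the 10 genes. Of these, 12 were near a TSS of the gene, 3 were elsewhere in a gene body, and 50 were in the flanks, 17 of them at the starts of other genes.

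Each peak is given by its fold enrichment, the ratio of fragments at its summit to the local expectation of the peak caller with 1 added to each, and by its −log10 q. The number of fragments over the summit was solved from the fold and the −log10 p. The highest promoter peaks of the 8 genes had a median fold of 9.06 against 9.86 for all protein-coding genes with one, and a median of 69 fragments against 64. The list holds 63456 peaks, with a median fold of 6.04 and a median of 29 fragments. Intervals on fragments are exact 95% Poisson intervals and cover counting error only. No replicate error can be given and no test was made, so each value describes this library alone. As a check of the cell type, 9 of 9 fibroblast marker genes had a promoter peak, beside 53.7% of all protein-coding genes. Their folds ran from 3.41 at Thy1, where 12 fragments lay 862 bp from the start, to 10.1 at Twist1. Of 4 epithelial markers Krt8 had one, at a fold of 3.25 with 22 fragments, and of 3 blood markers Spi1 had one, at 3.22 with 18 fragments. Both folds were close to that of Thy1, so at the low end a peak did not separate the cell types.

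**Figure D1:**
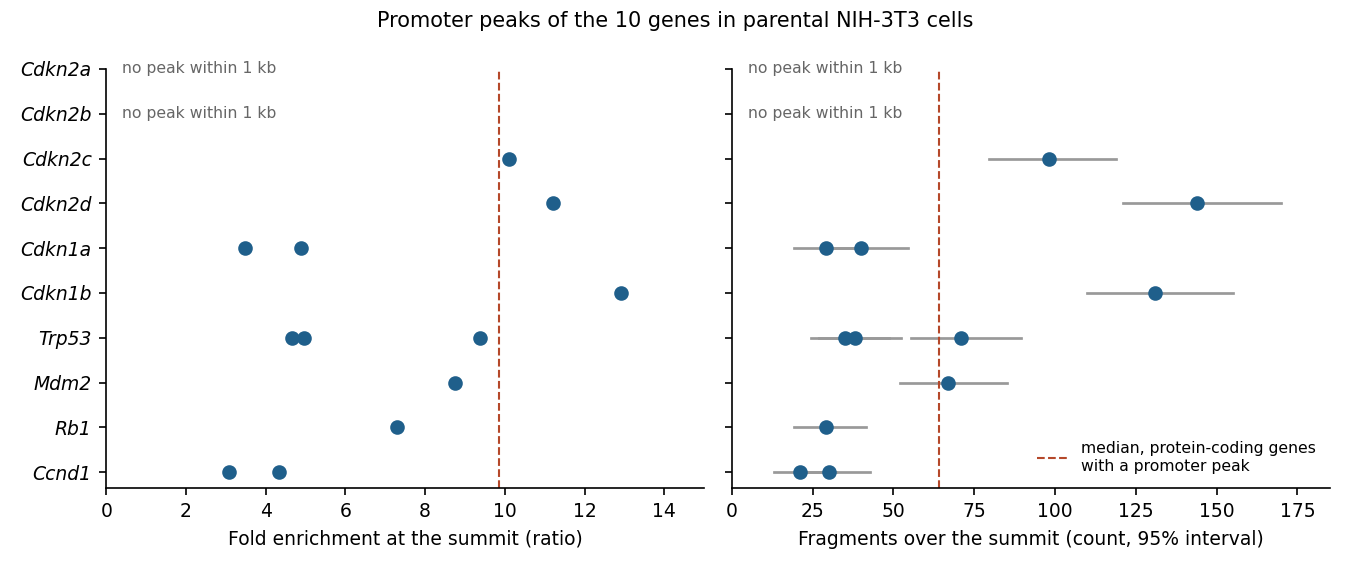
Fold enrichment (left, a ratio) and fragments over the summit (right, a count, with exact 95% Poisson intervals) of every promoter peak of the 10 genes; each point is 1 peak of the 1 library. The dashed lines are the medians over protein-coding genes with a promoter peak, 9.86 and 64. Cdkn2d and Cdkn1b stood highest, Cdkn1a and Ccnd1 lowest by fold, and Cdkn2a and Cdkn2b had no peak.

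By fragments, the order of the best promoter peaks was Cdkn2d with 144 (121 to 170), Cdkn1b with 131 (110 to 155), Cdkn2c with 98 (79.6 to 119), Trp53 with 71 (55.5 to 89.6), Mdm2 with 67 (51.9 to 85.1), Cdkn1a with 40 (28.6 to 54.5), Ccnd1 with 30 (20.2 to 42.8) and Rb1 with 29 (19.4 to 41.6). The intervals of every pair of neighbours in this order overlapped. Those of the 3 highest genes lay above those of the 3 lowest. The 71 fragments of Trp53 belong to a peak 811 bp upstream in an exon of Wrap53, and the peak over the Trp53 start had 35, which would place it below Cdkn1a. By fold the order differed, with Cdkn1b at 12.9 above Cdkn2d at 11.2, and Rb1 at 7.30 above Cdkn1a at 4.89 and Ccnd1 at 4.33. The expected pileup was 3.11 fragments at Rb1 and between 6.16 and 7.39 at Ccnd1 and Cdkn1a. Among protein-coding genes with a promoter peak, the fold of Cdkn1b stood at percentile 79.5, that of Cdkn1a at 8.49 and that of Ccnd1 at 5.58. By fragments, Cdkn1b stood at percentile 93.4, Cdkn1a at 23.4, Ccnd1 at 13.5 and Rb1 at 12.5.

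Cdkn2a and Cdkn2b, which encode p16 and ARF and p15, lay in a single interval without any peak. Cdkn2a spans chr4:89274471-89294653 and Cdkn2b chr4:89306299-89311039, both on the minus strand of mm10. The last peak before them ended at position 89235381 and the first peak after them began at 89393469, which leaves 158087 bp free of peaks. The p16 start at 89282192 was 46811 bp from the nearest peak, the ARF start at 89294653 was 59272 bp from it, and the Cdkn2b start at 89311039 was 75658 bp from it. No other of the 10 genes had a coding start further than 2587 bp from a peak.

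The promoters in this interval are shown because they are those without a peak among the 10 genes. Each is the part of a RefSeq promoter window (GRCm38.p6, read in the direction of the gene) that ends just before the GENCODE start, with CpG dinucleotides in capitals. The ARF promoter holds 35 CpGs in 216 bases at 78.7% G and C, the Cdkn2b promoter 11 in 243 bases, and the p16 promoter 7 in 250 bases. In the 500 bp around the starts the CpG ratio was 0.986 for ARF and 0.759 for Cdkn2b, both CpG-rich, and 0.577 for p16.
Cdkn2a, ARF start, chr4:89294654-89294869, minus strand: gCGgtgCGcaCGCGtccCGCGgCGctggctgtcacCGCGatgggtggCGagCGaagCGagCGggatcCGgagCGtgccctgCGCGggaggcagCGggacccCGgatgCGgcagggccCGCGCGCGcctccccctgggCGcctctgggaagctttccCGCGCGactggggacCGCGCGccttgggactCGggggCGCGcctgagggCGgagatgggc
Cdkn2a, p16 start, chr4:89282193-89282442, minus strand: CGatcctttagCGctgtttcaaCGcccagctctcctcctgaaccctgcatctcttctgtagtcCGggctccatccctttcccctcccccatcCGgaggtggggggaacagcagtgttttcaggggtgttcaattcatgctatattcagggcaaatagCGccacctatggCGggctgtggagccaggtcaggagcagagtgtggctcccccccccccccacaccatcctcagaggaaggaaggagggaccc
Cdkn2b, chr4:89311040-89311282, minus strand: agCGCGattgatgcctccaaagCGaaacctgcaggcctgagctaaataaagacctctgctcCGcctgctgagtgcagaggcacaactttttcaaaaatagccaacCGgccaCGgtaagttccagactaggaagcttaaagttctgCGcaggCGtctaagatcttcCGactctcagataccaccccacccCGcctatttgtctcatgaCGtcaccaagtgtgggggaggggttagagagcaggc

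None of these bases lay in a peak. For comparison, all 250 bases before the start of Cdkn1b, which encodes p27, lay in a peak of 131 fragments. That promoter holds 28 CpGs at 64.4% G and C.
Cdkn1b, chr6:134920151-134920400, plus strand: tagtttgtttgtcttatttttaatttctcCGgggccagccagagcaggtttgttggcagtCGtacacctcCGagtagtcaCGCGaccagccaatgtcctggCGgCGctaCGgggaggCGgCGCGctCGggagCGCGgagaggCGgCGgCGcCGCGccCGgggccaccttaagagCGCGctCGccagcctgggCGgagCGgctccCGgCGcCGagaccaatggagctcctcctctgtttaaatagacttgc

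The ARF promoter also holds the word TTTCCCGC at bases 152 to 159 of the sequence shown, 1 of 3 E2F words searched on both strands (TTTGGCGC, TTTCGCGC and TTTCCCGC). Such a word was found in 1.84% of the 32851 RefSeq promoter windows.

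Peaks were dense on either side of the interval. Within 200 kb there were 24 peaks to its left, with folds from 3.15 to 17.8 and a median of 7.725, and 22 to its right, with folds from 2.38 to 17.4 and a median of 6.47. The peak at the left edge was low, with a fold of 5.25 and 19 fragments, and that at the right edge lower, with a fold of 3.68 and 13 fragments. To the left, Mtap, which encodes a purine salvage enzyme, had a promoter peak at chr4:89136876-89138373 with a fold of 13.4, a −log10 q of 92.9 and 123 fragments, and 7 peaks in the gene. The next coding gene on that side, the interferon gene Ifne, had no promoter peak and its nearest peak was 2211 bp away. To the right, the CpG-rich start of Dmrta1, a DM-domain gene, had no peak within 1 kb. Its nearest was 3184 bp away, and 3 peaks lay in the gene. Zfp352, the next coding gene, was 15944 bp from a peak. A pair of noncoding genes touched the interval: Gm12606 lay inside it without a peak, and Gm12609 crossed the right edge and held the edge peak in an intron.

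**Figure D2:**
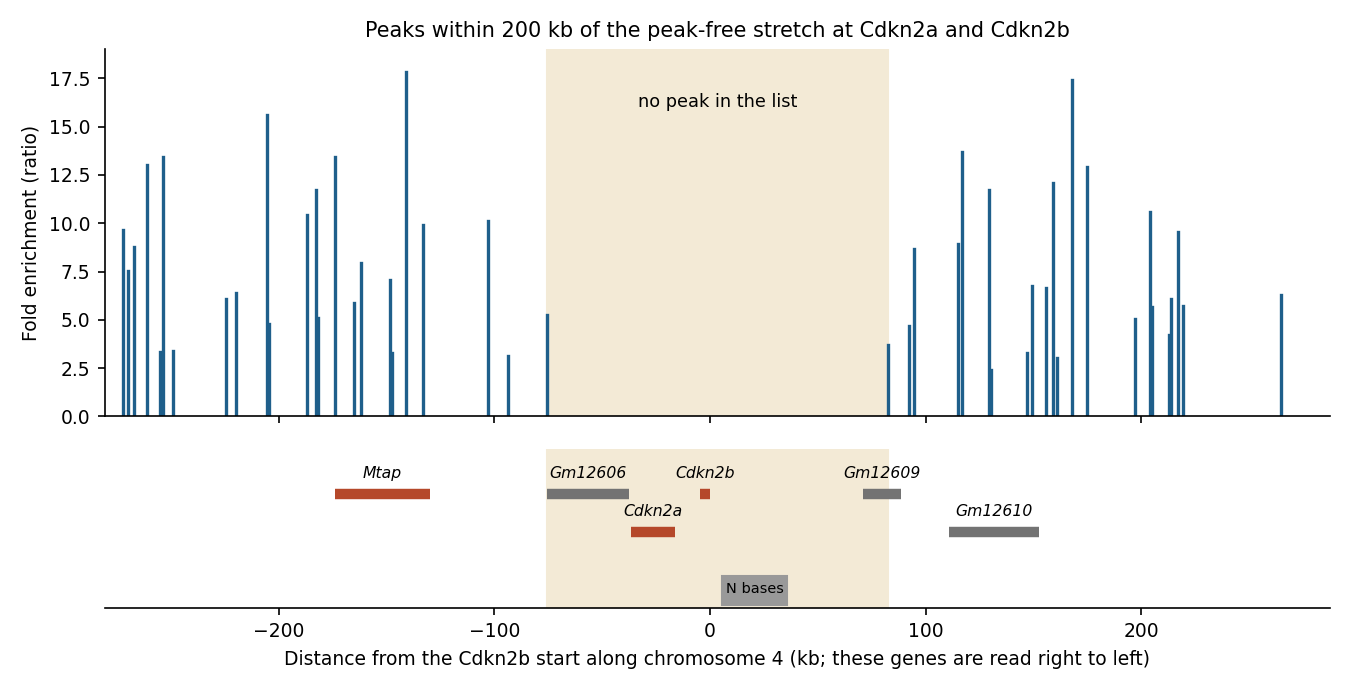
Peaks (blue bars, height is the fold enrichment as a ratio) within 200 kb of the interval without peaks (shaded, 158087 bp), by distance in kb from the Cdkn2b start along chromosome 4. The lower panel draws protein-coding genes in red, noncoding genes in dark grey and the longest run of N bases in light grey. Peaks stop at the left edge, 75658 bp before the Cdkn2b start, and resume 82430 bp after it.

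Part of the interval could not be read at all. It holds 5 runs of N bases, 30400 bp or 19.2% of its length, the longest of 30000 bp at chr4:89316800-89346799, and all of them lie to the right of Cdkn2b. Without N bases the interval measured 127687 bp, and Cdkn2a, Cdkn2b and everything to their left were free of N. Soft-masked repeats made up 33.4% of the interval and 34.5% of chromosome 4. The peaks of the list were numbered from 1 to 63456 with no number missing, and the numbers ran on across the interval.

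Intervals of this length were not rare, but few lay between such dense flanks. Of 62151 autosomal intervals between neighbouring peaks, with a median length of 12135 bp, 2226 (3.58%) were as long. Counted without N bases, 2839 (4.57%) were as long, of which 627 held at least 1 gene with a CpG-rich start and 101 held 2 or more such genes. The side with fewer peaks within 200 kb had 22 here and a median of 2 over the 2839. An equal or higher number was found for 3 of the 2839 (0.106%), this interval included, and for 1 of the 101, this interval itself. The next of the 101 had 15. Counted within 100 kb, the side with fewer peaks had 10 here. As many or more were found for 8 of the 2839 and 3 of the 101, this interval included in both, and the next of the 101 also had 10. A peak list holds no reads outside peaks, so closed chromatin and loss of this DNA from the cells cannot be told apart from it.

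**Figure D3:**
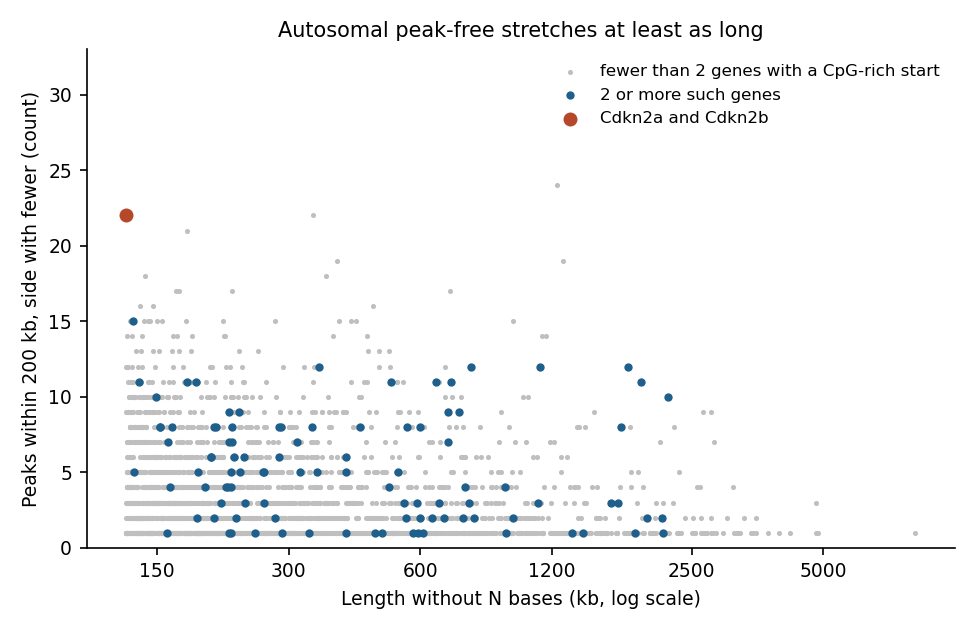
Length without N bases (kb, log scale) of the 2839 autosomal intervals at least as long as that of Cdkn2a and Cdkn2b, against the number of peaks within 200 kb on the side with fewer, edge peak included. Each point is 1 interval; blue points are those with 2 or more genes with a CpG-rich start. The interval of Cdkn2a and Cdkn2b (red) sits at 22, above the blue points, of which the highest is at 15.

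The other INK4 genes had promoter peaks with many fragments, at percentiles 80.4 for Cdkn2c and 96.1 for Cdkn2d among protein-coding genes with a promoter peak, and with folds nearer the middle, at percentiles 52.6 and 64.2. Cdkn2c, which encodes p18 (chr4:109660876-109667189, minus strand), had 1 peak of 2000 bp that covered both of its starts, with a fold of 10.1, a −log10 q of 62.7 and 98 fragments. It lies on the same chromosome as Cdkn2a and Cdkn2b. Its highest neighbour, with a fold of 12.5, stood at the start of Faf1, 8875 bp upstream. Cdkn2d, which encodes p19INK4d (chr9:21288410-21291407, minus strand), had a peak of 924 bp over its 3 starts with a fold of 11.2, a −log10 q of 96.8 and 144 fragments, the most of the 10 genes. The highest of its 8 flanking peaks, with a fold of 9.0, was at the start of Atg4d, an autophagy protease gene.

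The CIP/KIP genes stood far apart in the fold of their promoter peaks. Cdkn1b (chr6:134920401-134925513, plus strand) had the highest promoter fold of the 10 genes, 12.9, in a peak of 1297 bp with a −log10 q of 96.5, and the highest of its 10 flanking peaks, at 11.5, was at the start of the noncoding gene Lockd. Cdkn1a, which encodes p21 (chr17:29090976-29100727, plus strand), had the lowest fold but one. Its peak at the starts 29093769 and 29093781 was 248 bp wide, with a fold of 4.89, a −log10 q of 14.5 and 40 fragments. A further peak, 900 bp from the nearer start, had a fold of 3.49 and 29 fragments. The tallest of its peaks within the gene was in the intron, with its summit 1726 bp downstream of the start, a fold of 7.04, a −log10 q of 30.1 and 60 fragments (45.8 to 77.2). The noncoding gene AC167363.2 also has starts within 1 kb of all 3. Upstream, the highest flank peak, with a fold of 7.71, was at the start of Trp53cor1, a noncoding gene described as a p53 target, and 4 more peaks lay in its introns.

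The upstream start of Cdkn1a is shown because it carries the only exact match to a p53 response element found near a start of the 10 genes. Its 247 bases (RefSeq, GRCm38.p6), with the exact match in capitals, are followed by the bases before the start with the peak, where capitals mark CpG.
Cdkn1a, upstream start, chr17:29090729-29090975, plus strand: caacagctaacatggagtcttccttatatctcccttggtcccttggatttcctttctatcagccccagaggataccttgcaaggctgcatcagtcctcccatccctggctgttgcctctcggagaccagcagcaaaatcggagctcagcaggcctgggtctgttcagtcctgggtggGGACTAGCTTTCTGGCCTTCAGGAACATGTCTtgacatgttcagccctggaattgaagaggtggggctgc
Cdkn1a, start with a peak, chr17:29093519-29093768, plus strand: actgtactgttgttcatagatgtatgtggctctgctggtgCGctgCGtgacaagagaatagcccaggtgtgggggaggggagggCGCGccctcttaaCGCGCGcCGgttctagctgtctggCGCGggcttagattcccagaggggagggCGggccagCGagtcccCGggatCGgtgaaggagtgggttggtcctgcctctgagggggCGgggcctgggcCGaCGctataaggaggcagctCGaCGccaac

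The element, a pair of exact 10-base half-sites of the p53 consensus 12 bases apart, lies at chr17:29090906-29090937, 70 bp before the start at 29090976. The half-site consensus was RRRCWWGYYY, where R is A or G, W is A or T and Y is C or T. The 10 bases right after the element, tgacatgttc, depart from this consensus only at their first base and were therefore not marked. With the half-site before them, GAACATGTCT, they form a pair without a spacer and with a single mismatch. The capitals mark the exact match of the search, and which of these pairs p53 binds was not tested. The element was 2629 bp from the nearest peak, and none of the 247 bases was in a peak. At the other start, 203 of 250 bases were. The upstream window has 2 CpGs, and the one with the peak has 19. Searched within 5 kb of every start of the 10 genes, with half-sites up to 13 bases apart and no mismatch allowed, this was the single match. Elements with a mismatch were not searched, so the other genes cannot be said to lack p53 sites. Such an element was found in 0.0731% of RefSeq promoter windows.

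The highest promoter peaks of Trp53 and Mdm2 were somewhat below the median fold of 9.86 but, with 71 and 67 fragments, slightly above the median of 64. Trp53 (chr11:69580359-69591873, plus strand) shares its promoter with Wrap53, read in the other direction. The highest of the 3 peaks within 1 kb of a Trp53 start had a fold of 9.38, a −log10 q of 44.1 and 71 fragments, but lay 811 bp upstream in an exon of Wrap53. The peak over the Trp53 start itself had a fold of 4.65 and 35 fragments (24.4 to 48.7). That in an intron had a fold of 4.96 and 38 fragments (26.9 to 52.2), so their intervals overlapped. The 103 bases between the nearest exon of Wrap53 and the start of Trp53, shown with CpG in capitals, lay wholly in the peak and hold 4 CpGs at 56.3% G and C. Trp53 was the one of the 8 genes with a promoter peak that had no CpG-rich start.
Trp53, chr11:69580256-69580358, plus strand: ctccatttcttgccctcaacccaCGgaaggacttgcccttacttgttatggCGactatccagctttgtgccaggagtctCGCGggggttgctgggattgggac

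Mdm2 (chr10:117688875-117710758, minus strand) had 1 promoter peak, 958 bp wide, with a fold of 8.74, a −log10 q of 39.6 and 67 fragments. The peak reached over 218 of the 250 bases before the start, which hold 29 CpGs at 65.6% G and C. Upstream of it stood 4 further peaks with folds of 7.47, 10.6, 7.53 and 11.7. The highest was at the start of Slc35e3, and that of 10.6, with its summit 10919 bp upstream, was at no annotated start.
Mdm2, chr10:117710759-117711008, minus strand: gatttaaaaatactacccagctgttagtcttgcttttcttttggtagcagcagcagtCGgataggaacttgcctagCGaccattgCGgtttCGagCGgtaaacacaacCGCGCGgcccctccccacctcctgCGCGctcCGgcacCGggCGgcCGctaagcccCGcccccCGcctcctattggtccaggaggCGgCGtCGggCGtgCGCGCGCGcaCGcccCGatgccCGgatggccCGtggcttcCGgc

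Rb1 and Ccnd1 had the promoter peaks with the fewest fragments. Rb1 (chr14:73183673-73325822, minus strand) is the longest of the 10 genes, with 142150 bp, and had 3 peaks at its promoter or in its body and 2 in its flanks. Its promoter peak had a fold of 7.30, a −log10 q of 16.3 and 29 fragments over a start with 80.4% G and C and a CpG ratio of 1.18, the highest of the 10 genes. Within the gene, a peak with a fold of 7.09 lay in an exon of Lpar6, a receptor gene nested in an intron of Rb1, and another with a fold of 4.46 lay in an intron. The highest flank peak, at 5.52, was at the start of Rcbtb2. Ccnd1 (chr7:144929931-144939925, minus strand) had a split promoter signal rather than 1 broad peak. The peak over its coding start was 180 bp wide, with a fold of 4.33, a −log10 q of 9.6 and 30 fragments, and a second 108 bp upstream of the outermost start had a fold of 3.09 and 21 fragments. Upstream, with summits 1768 and 3555 bp before the start, were peaks with folds of 4.84 and 4.4. The expected pileup over these 4 peaks was between 5.60 and 6.16 fragments, against 2.81 for the background of the library. Its highest neighbour, at 9.22, was at the start of LTO1.

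**Figure D4:**
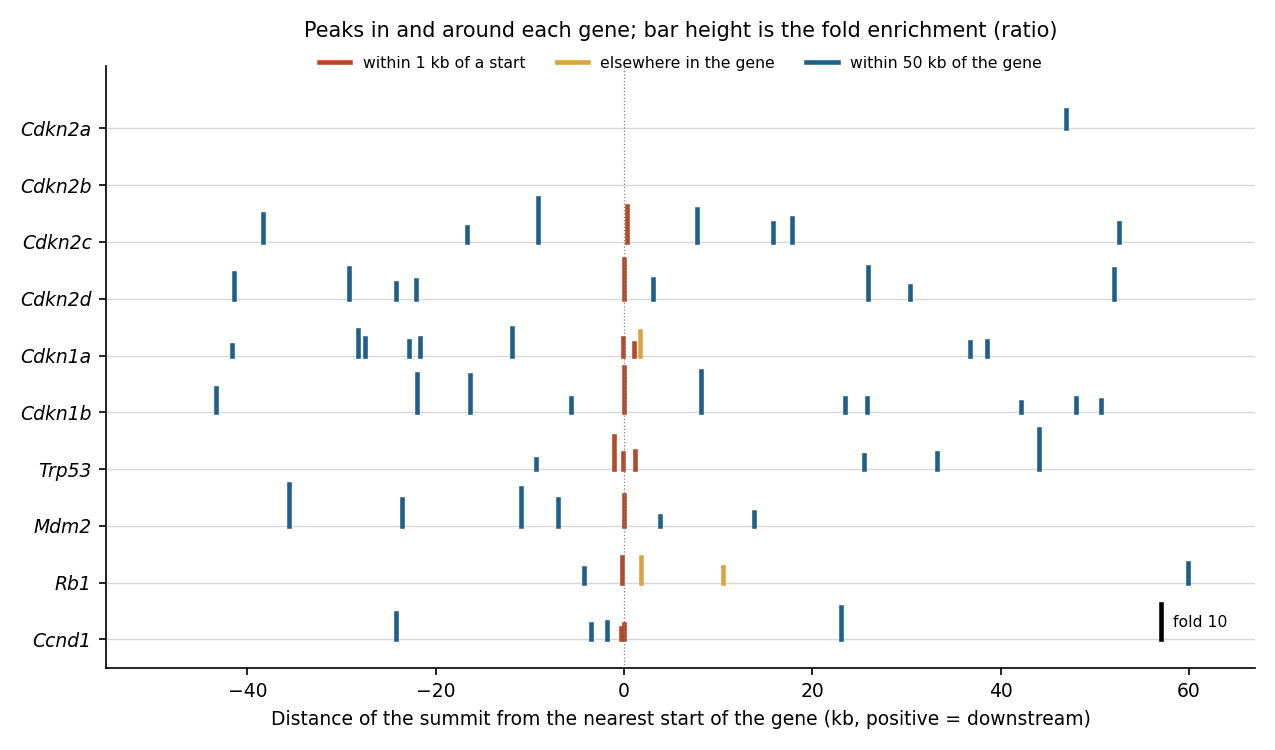
Every peak in or within 50 kb of the 10 genes, by distance in kb of its summit from the nearest start of that gene (positive values are downstream). Bar height is the fold enrichment as a ratio, with a scale bar of 10, and colours separate peaks within 1 kb of a start, elsewhere in the gene and in the flanks. The 8 other genes had between 5 and 11 peaks each, while Cdkn2a had 1 and Cdkn2b had 0.

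Motifs were counted in the peaks of the 10 genes beside those of all peaks. The AP-1 word TGACTCA, read on both strands in the 300 bases around each summit, was in 14 of the 34 peaks of these genes more than 1 kb from any start and in 2 of the 31 nearer to one. These are shares of 41.2% and 6.45%, beside 39.8% and 13% among all peaks away from and near starts. None of the 12 promoter peaks of the 10 genes held an AP-1 word, an E2F word or an exact p53 element. The E2F words were in 2 of the 65 peaks, at the start of Faf1 beside Cdkn2c and in the peak 1768 bp upstream of Ccnd1, while 2.85% of all peaks near starts and 0.449% of those away from them held one. No exact p53 element was in any of the 65, and over all peaks 0.0993% held one. Elements with a mismatch were not counted. The upstream peak of Mdm2 with a fold of 10.6 held 2 AP-1 words, and the intronic peak of Cdkn1a held 1.

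Of 83 further genes of the pathway, listed by role, 74 (89.2%) had a promoter peak, against 53.7% of all protein-coding genes. Their median fold was 10.5, against 9.86. Most of the list, 75 genes, has a CpG-rich start, and 68 of these had a peak, beside 81.0% of all genes with such a start. Both other pocket protein genes had one, Rbl1 with a fold of 9.92 and Rbl2 with 13.5. All 7 genes of G1 cyclins and kinases had one, from Cdk6 at 5.04 to Ccne2 at 12.6, as did 9 of 10 E2F genes, from E2f2 at 3.62 to E2f5 at 15.6. Among CDK inhibitors outside the 10 genes, Cdkn3 had a peak with a fold of 17.2, and Cdkn1c, an imprinted gene that encodes p57, was 87506 bp from the nearest peak.

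Genes that act on p53 or respond to it are for the most part CpG-rich, and their counts stand beside the same 81.0%. Of 16 relatives and regulators of p53, 15 of them CpG-rich, 14 had a promoter peak, from the acetyltransferase gene Kat5 at 5.56 to Trp53bp1 at 16. The exceptions were the other p53 family genes, Trp63 and Trp73, at 23767 and 2049 bp from a peak. Wrap53 is among the 14, and its best peak, with a fold of 9.38, is the one given above for Trp53. Of 12 p53 targets in arrest 11 had a peak, with Zmat3 lowest at 7.23 and Ccng1 highest at 17.8, and Sfn without one. Of 13 targets in apoptosis 11 had one, from Bbc3 at 4.89 to Trp53inp1 at 16.1, and Pmaip1 and Perp had none; of the 10 CpG-rich genes among them, 8 had one. All 8 targets in repair or feedback had one, from Tigar at 6.40 to Polk at 15.

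Of 13 genes listed as repressors of Cdkn2a, 11 had a promoter peak, with a median fold of 9.30. Of the 12 with a CpG-rich start 10 had one, near the share of 81.0% over all such genes. Among them were the Polycomb genes Rnf2, with the highest fold of the list at 14.6, Ezh2 at 14, Suz12 at 13.5, Bmi1 at 5.91 and Ring1, with the lowest, at 5.19. The Polycomb gene Cbx7 and the T-box gene Tbx2 had none, with their nearest peaks 2013 and 9079 bp away. The last gene without a promoter peak among the 83 was E2f6, at 2588 bp from one. A peak shows that DNA was accessible and gives no level of transcript or protein.

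**Figure D5:**
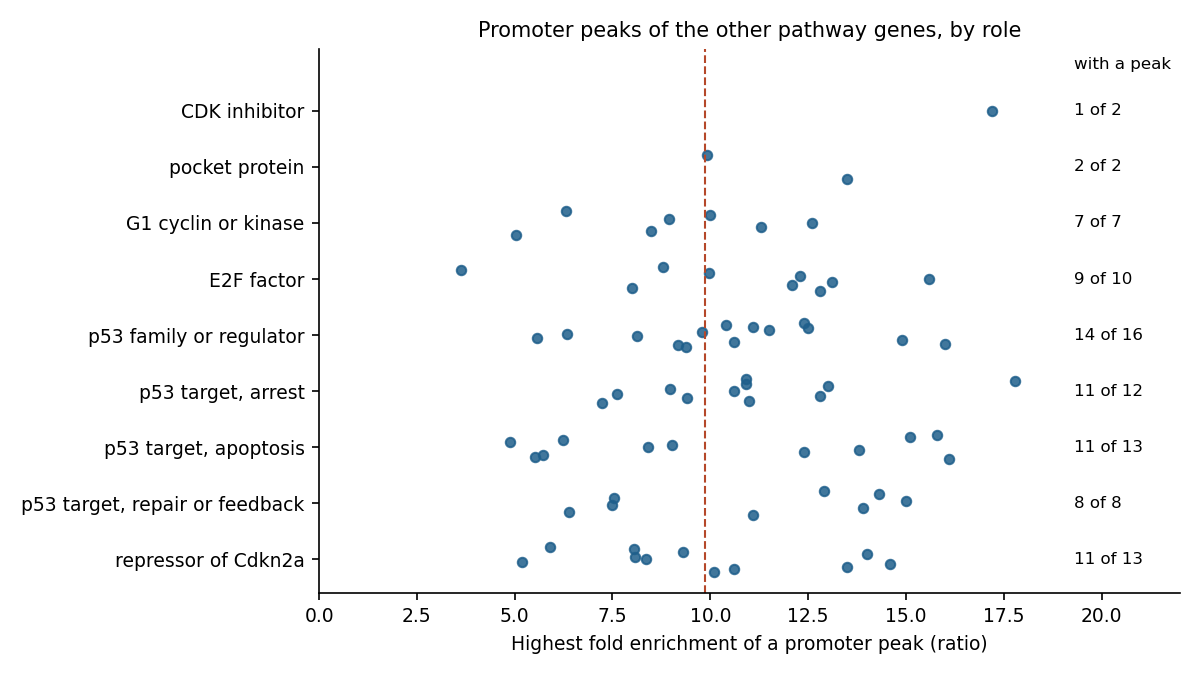
Highest fold enrichment (a ratio) of a promoter peak for each of the other 83 pathway genes, in rows by role; each point is 1 gene with a peak, and the number with a peak is given at the right. The dashed line is the median of 9.86 over protein-coding genes. Folds ran from 3.62 to 17.8, and 74 of the 83 genes had a peak.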

How the data were processed

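Peaks of 1 ATAC-seq library of parental NIH-3T3 cells (50000 cells, 0.5 µM Tn5, 12 PCR cycles per the labels) were analysed; the other 30 samples were not analysed here. Per the submitters' notes and the study's methods, the authors aligned 75-nucleotide paired-end reads to mm10 with STAR 2.5.3a, kept uniquely mapped reads, removed duplicates with Picard and called peaks on whole fragments with MACS2 2.1.1.20160309; no shift for the Tn5 cut is described. The methods describe removal of blacklisted and input peaks for ChIP-seq and refer to it for ATAC-seq. The deposited list, numbered without a gap, shows no removal of peaks after numbering. The authors deposited, per peak, a score, a fold (ratio of summit pileup to local expectation, each with 1 added), a −log10 p and a −log10 q from a Poisson p-value and q-value, and the summit offset. Values in the deposited list are those of 1 library, without a read total, so depth is known at summits only.

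Fragments over each summit were solved from fold and −log10 p by bisection, and the solver was tested on simulated data with known pileups. Of the deposited peaks, 99.997% came out within 0.02 of a whole number, the lowest at 10 fragments, and 26.1% had the background expectation of 2.81. The lowest −log10 q was 1.30. Peaks were placed on GENCODE M21 and the GRCm38 sequence, the same build, with coordinates counted from 1. Promoter windows were taken from RefSeq (GRCm38.p6), which matched 8 of the 10 genes. Motifs were searched in 300 bases around each summit. All 10 genes, the genes in and beside the interval of Cdkn2a, the highest flank peak of each gene, and for each role the highest, the lowest and every gene without a peak were named; further genes (Thy1, Twist1, Krt8, Spi1, Ezh2, Suz12, Bmi1) and further flank peaks were chosen after their values were seen. The genes and lists were chosen with earlier results of these data known. Stricter lists (a q of 0.01, a q of 1e-05, folds of 5 or more), other distances and coding transcripts only were tried as alternatives. Python 3.11.15, pandas 2.3.3, SciPy 1.17.1 and pysam 0.24.0 were used.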

Additional observations from a re-analysis of the deposited data

How the results depend on the processing

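No paired analysis was possible because a single sample has a file here. The genes with a promoter peak were 8 under every alternative run except a fold of at least 5, where Cdkn1a and Ccnd1 dropped out and 6 were left. The median promoter fold ran from 8.02, where the peak had to overlap the start, to 9.75, and was 69 when given in fragments in place of fold. Around the 10 genes there were 35 peaks with a fold of at least 5, 35 within 20 kb and 111 within 100 kb, in place of 65. The interval without peaks at Cdkn2a and Cdkn2b grew to 167913 bp at a q of 1e-05 and to 170233 bp at a fold of at least 5, and measured 127687 bp without N bases, an alternative chosen after seeing the data. Of the 83 pathway genes, 72 to 79 had a promoter peak. Low peaks rest on 10 fragments or slightly more, so accessibility below that was not detectable at this depth.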
